A study of Mus musculus with 53 samples.

Results

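Receptors for chemoattractant ligands, encoded by Ccr1, Ccr2, Ccrl2, Cx3cr1 and Cxcr4, were followed through a time course of alternative macrophage polarization. These are 5 of the 23847 loci listed in each expression table. They were chosen by name, with earlier results of these data known. All 5 were among the 11146 loci that reached 1 FPKM in at least 1 sample. FPKM are fragments counted per kilobase of transcript and scaled to the mapped fragments of the library. The cells were bone marrow-derived macrophages (BMDMs) from C57BL/6 mice aged 8 to 12 weeks, either wild type (WT) or lacking Stat6 in the whole body (Stat6-/-), grown for 6 days with L929 supernatant as the source of M-CSF, so that every group carried this factor. IL-4 was then given at 20 ng/ml for 1, 3, 6 or 24 h, and each time had controls without IL-4, with a further 0 h control. Each WT group held 4 samples, except 24 h IL-4 with 3 (no replicate 1), and each Stat6-/- group held 2, giving 53 samples in 18 groups.

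Chemokine receptors are G protein-coupled receptors that steer leukocytes along gradients of chemokines. On monocytes and macrophages, CCR2 binds CCL2 and related chemokines and is needed for the exit of inflammatory monocytes from bone marrow, CCR1 binds CCL3, CCL5 and other inflammatory chemokines, CX3CR1 binds the membrane-anchored chemokine CX3CL1, and CXCR4 binds CXCL12 and retains cells in the marrow. CCRL2 is an atypical receptor that binds chemerin (encoded by Rarres2) without classical signalling. IL-4 acts through STAT6, a transcription factor, and polarizes macrophages to the alternative state.

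The upstream bases are shown for the receptor that rose at 24 h and for the one that fell at least 2-fold at 1 h. Ccr1 lies on the minus strand of chromosome 9 (mm10; 123962126 to 123968692) and Cxcr4 on the minus strand of chromosome 1 (128588199 to 128592299), and each sequence is the 250 bases before the RefSeq start (GRCm38.p6; chr9:123968693-123968942 and chr1:128592300-128592549), which held no annotated exon. Capitals mark matches to GAGGAA, the core bound by the macrophage factor PU.1.
Ccr1: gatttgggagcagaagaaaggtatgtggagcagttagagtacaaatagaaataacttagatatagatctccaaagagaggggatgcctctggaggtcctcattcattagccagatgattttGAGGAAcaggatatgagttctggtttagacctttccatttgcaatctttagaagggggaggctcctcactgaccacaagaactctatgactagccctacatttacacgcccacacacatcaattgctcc
Cxcr4: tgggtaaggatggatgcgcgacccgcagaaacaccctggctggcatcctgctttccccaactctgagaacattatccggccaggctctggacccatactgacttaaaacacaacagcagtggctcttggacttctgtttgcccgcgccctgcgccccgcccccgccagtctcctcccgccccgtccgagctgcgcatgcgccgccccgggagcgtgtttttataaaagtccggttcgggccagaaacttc
All 7 RefSeq windows of the 5 genes were searched on both strands. Of 250 bases each, 250 of the Cx3cr1 window and 233 of the Ccr2 window lay in annotated exons. Ccrl2 windows 2 and 3 held 139 and 140 such bases and overlap each other, so the 7 are not separate upstream regions. TTCNNNNGAA (the STAT6-type spacing), TTCNNNGAA (the spacing of other STATs) and TGANTCA (AP-1) matched in 0 of the 7, against 5.85%, 7.02% and 6.75% of all 32851 windows, and GAGGAA matched in 1 of 7, against 23.3%. A match or its absence in 250 bases describes these letters only.

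The other 3 genes are also on chromosome 9: Ccrl2 (111054835 to 111057270, minus strand), Cx3cr1 (120048683 to 120068296, minus strand) and Ccr2 (124102183 to 124109140, plus strand). Ccr1 and Ccr2 stand in one receptor cluster, with Ccr1l1 and Ccr3 between them. Of the 100-base stretches in the annotated transcripts of Ccr1, Ccrl2, Cx3cr1 and Cxcr4, 0 occur in another gene. Exons of Cx3cr1 overlap the antisense gene Gm33858, and the library kit was not stranded, so reads of the pair cannot be told apart.

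Stat6 itself ranged from 58.7 to 90.6 FPKM in the WT samples and from 14.3 to 24.0 FPKM in the Stat6-/- samples, with no overlap. Macrophage identity was checked with 6 markers (Adgre1, Csf1r, Cd68, Itgam, Mertk, Fcgr1), all of which were above 0 in every sample, and their summed level ran from 2604 to 4469 FPKM. Mast cell or basophil markers (2 of 3 tested) did not pass with IL-4 at any time. Of 2 tested eosinophil markers 1 rose at 24 h, when 55.0% of all tested loci passed. No dendritic cell, T cell, B cell or fibroblast marker reached 1 FPKM in any sample. Differences below are on the log2(FPKM + 1) scale from limma, with Benjamini-Hochberg adjustment over all tested loci, and a difference passed when its adjusted p was under 0.05.

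With IL-4 in WT BMDMs, Cxcr4, Ccrl2, Cx3cr1 and Ccr2 fell, and Ccr1 rose at 24 h. At 1 h 2 of the 5 passed (Ccrl2 and Cxcr4), against 9.39% of all tested loci. At 3 h it was 3 of 5, against 28.9%, at 6 h 4 of 5, against 41.2%, and at 24 h 3 of 5, against 55.0%. The 24 h share lies near that of all loci, so the count alone is no result about the receptors there. Every IL-4 sample lay below every control for 2, 4, 4 and 3 receptors at 1, 3, 6 and 24 h, against 7.81%, 18.1%, 22.3% and 37.1% of loci, and above every control for 1 receptor at 24 h, against 27.4%.

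**Figure D1:**
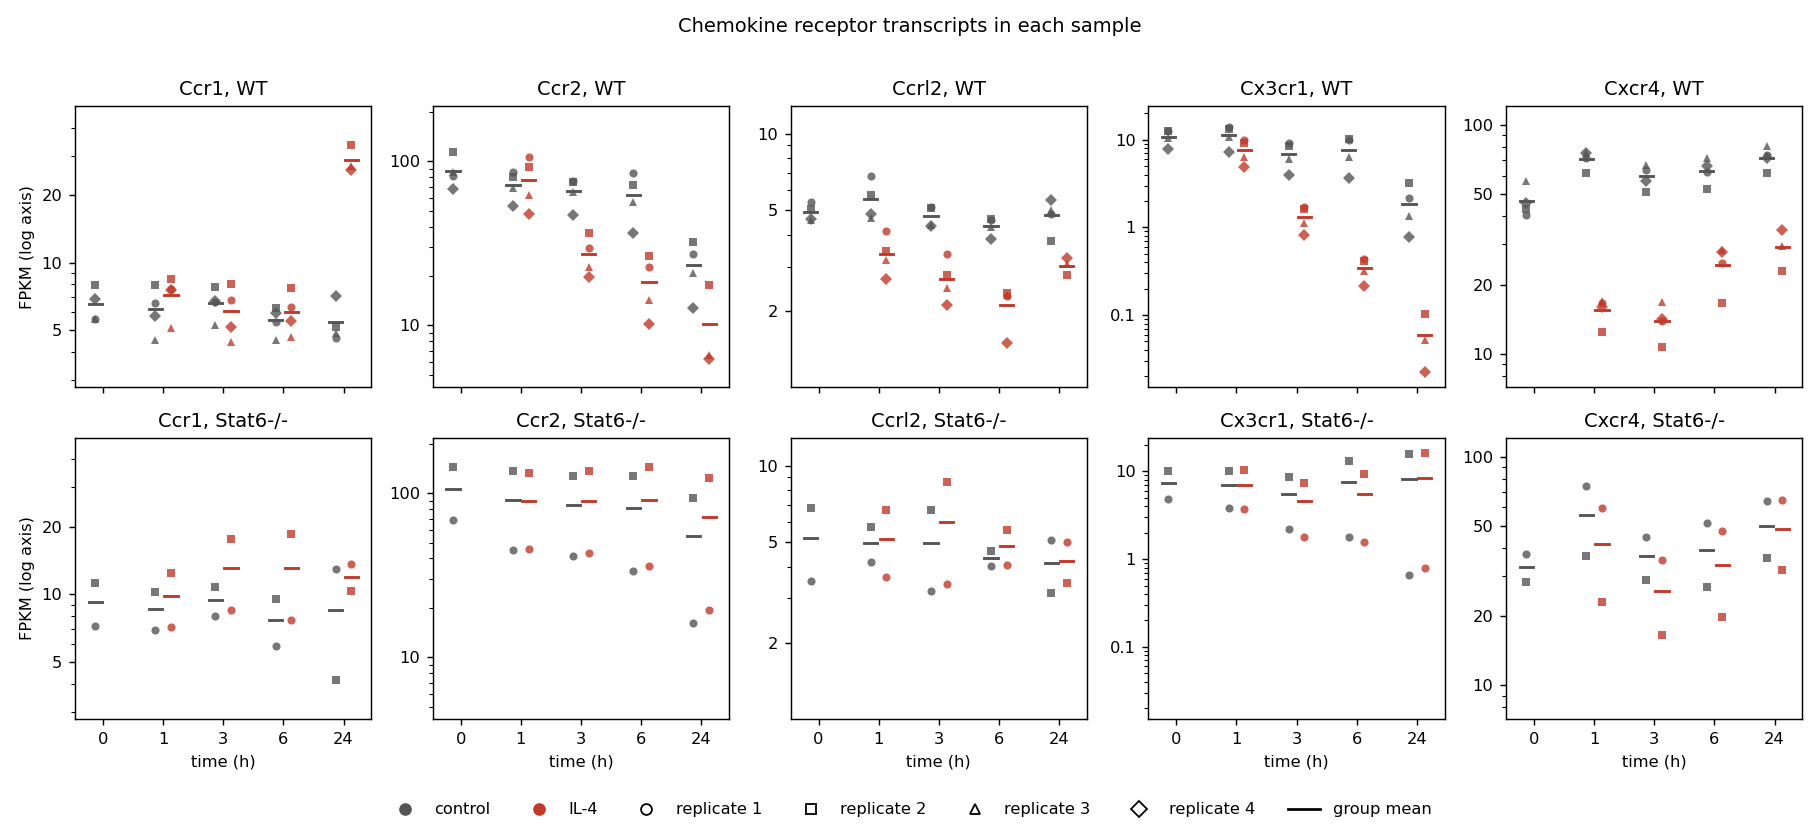
FPKM (log axis) of the 5 receptors in every sample against time, WT above and Stat6-/- below, with controls in grey, IL-4 in red, replicate numbers as symbols and group means as bars. Every WT sample with IL-4 lies below every time-matched control for Cxcr4 at 1, 3, 6 and 24 h, for Cx3cr1 at 3, 6 and 24 h and for Ccr2 at 3 and 6 h, and the 24 h IL-4 samples of Ccr1 (25.8 to 33.3 FPKM) stand above all others.

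Cxcr4, the CXCL12 receptor, was the receptor with the largest difference at 1 h. The 1 h WT controls held 72.0, 61.5, 75.6 and 75.8 FPKM and the 1 h IL-4 samples 16.6, 12.5, 17.0 and 16.05 FPKM, so the groups did not overlap. With IL-4 the mean was 21.8% of the control, and the difference was -2.13 (SE 0.27, limma adjusted p = 9.8e-08).
At 3 h, the controls held 63.9, 50.9, 66.9 and 56.7 FPKM and the IL-4 samples 13.9, 10.7, 16.8 and 14.2 FPKM, again without overlap. That difference was -2.03 (SE 0.27, limma adjusted p = 9.9e-08).
Later the gap was smaller. The 6 h controls held 62.2, 52.2, 72.0 and 66.3 FPKM against 24.9, 16.6, 28.3 and 27.8 FPKM with IL-4, and the 24 h controls 73.8, 62.0, 80.8 and 71.6 FPKM against 23.0, 29.5 and 34.8 FPKM. Each IL-4 sample still lay below each control, with differences of -1.36 (limma adjusted p = 8.2e-05) and -1.29 (limma adjusted p = 3.1e-04). The change of the response from 3 to 6 h was 0.68 with an adjusted p of 0.532 in limma (0 of 5 receptors passed, against 3.31% of loci), and of 7.2e-04 with the replicate number as a block (1 of 5, against 11.8%).

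Cx3cr1, the fractalkine receptor, fell furthest in relative terms. At 1 h the controls held 13.8, 13.3, 10.7 and 7.30 FPKM and the IL-4 samples 9.89, 9.07, 6.34 and 4.88 FPKM, with overlapping groups and a difference of -0.53 that did not pass (limma adjusted p = 0.690). The 3 h controls held 9.20, 8.41, 5.98 and 3.95 FPKM and the IL-4 samples 1.70, 1.64, 1.13 and 0.816 FPKM, every one below every control (-1.73, SE 0.57, limma adjusted p = 0.018). Leaving out any 1 of WT replicates 1, 2, 3 and 4 ended the 3 h call (limma adjusted p = 0.067 to 0.110), as did Tukey adjustment (adjusted p = 0.282).
At 6 h the controls held 9.85, 10.2, 6.43 and 3.64 FPKM and the IL-4 samples 0.439, 0.419, 0.319 and 0.215 FPKM. The IL-4 mean was 4.61% of the control mean, and the difference was -2.58 (SE 0.57, limma adjusted p = 2.9e-04). By 24 h the controls had 2.15, 3.20, 1.36 and 0.768 FPKM and the IL-4 samples 0.103, 0.0519 and 0.0224 FPKM, a mean of 3.16% of control.
Both 24 h groups were low, and on the log2(FPKM + 1) scale that difference was -1.36, which did not pass (limma adjusted p = 0.057). It passed with the replicate block (limma adjusted p = 6.6e-05) and with a pseudocount of 0.1 (difference -3.49, limma adjusted p = 2.5e-04). The same held with only the groups compared in the fit (limma adjusted p = 0.0026).
Against the control with the same replicate number, the 4 IL-4 samples sat at 18.4 to 20.7% at 3 h and 4.09 to 5.90% at 6 h, although the control levels themselves differed 2.33-fold and 2.81-fold between replicates.

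**Figure D2:**
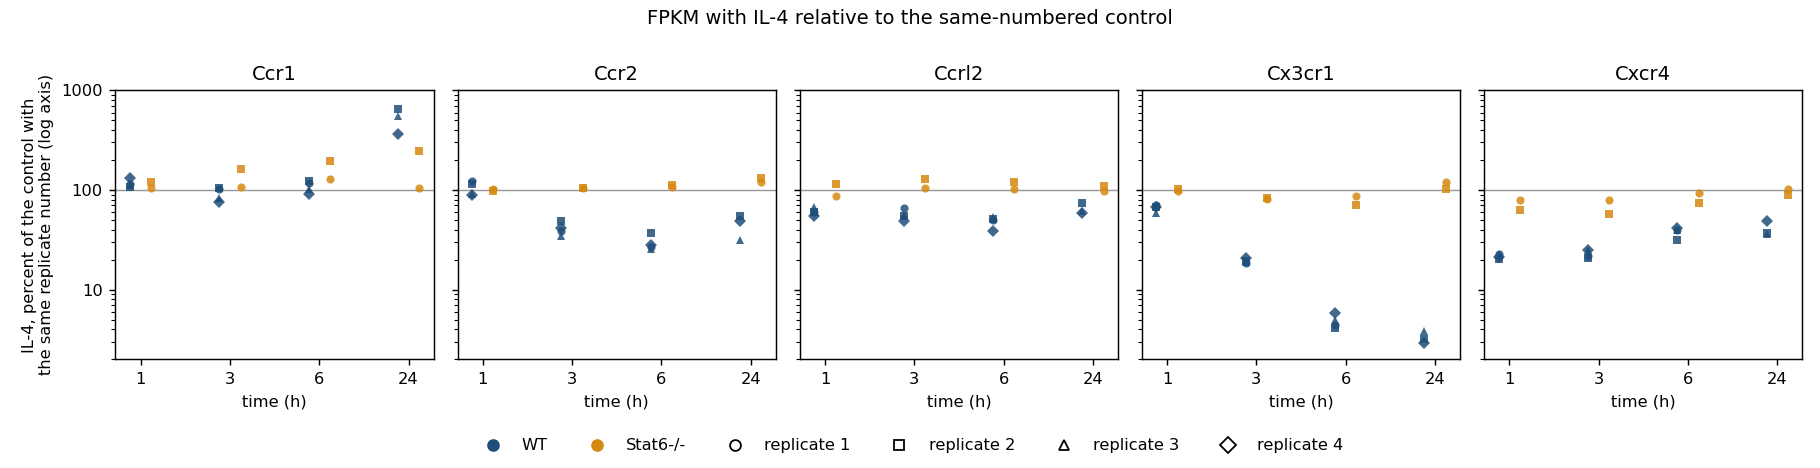
FPKM with IL-4 as a percent of the control with the same replicate number (log axis) for each receptor and time, WT in blue and Stat6-/- in orange, with a line at 100%. WT points of Cx3cr1 lie within 18.4 to 20.7% at 3 h, and Stat6-/- points of Cx3cr1 at the same time lie at 82.0 to 84.1%.

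Ccr2, the CCL2 receptor, showed a difference of 0.05 at 1 h that did not pass (limma adjusted p = 0.981), with 86.2, 80.8, 68.9 and 53.3 FPKM in controls and 106, 92.3, 62.7 and 47.9 FPKM with IL-4. At 3 h the controls held 76.2, 75.2, 64.8 and 47.3 FPKM and the IL-4 samples 29.5, 36.8, 22.6 and 19.8 FPKM. The groups were apart and the difference was -1.26 (SE 0.54), with a limma adjusted p of 0.078, and of 9.0e-08 with the replicate block. It also passed with only the groups compared in the fit (limma adjusted p = 0.0013).
At 6 h it fell from 85.5, 71.9, 56.4 and 36.5 FPKM to 22.8, 26.5, 14.4 and 10.2 FPKM, which is 29.5% of the control mean (-1.73, SE 0.54, limma adjusted p = 0.0091). That call was lost without WT replicate 1 or 3 (limma adjusted p = 0.058 and 0.074) and under Tukey adjustment (adjusted p = 0.214). The 24 h controls held 27.4, 32.2, 20.9 and 12.9 FPKM and the IL-4 samples 17.6, 6.62 and 6.29 FPKM, which overlapped. That difference of -1.19 had a limma adjusted p of 0.080, and of 3.0e-06 with the block. It passed as well with only the groups compared in the fit (limma adjusted p = 0.031).

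From 1 to 3 h the WT response moved by -1.31 for Ccr2 and -1.20 for Cx3cr1, and from 6 to 24 h by 0.53 and 1.22 (0.63 and 1.31 with the replicate block). These 4 changes did not pass without the block and passed with it (limma adjusted p = 6.1e-05, 0.0080, 0.039 and 0.0026). All but the 6 to 24 h change of Ccr2 also passed with only the groups compared in the fit (limma adjusted p = 0.016, 0.028 and 0.026). Without the block, 27.8% of all tested loci passed for the 6 to 24 h change. The shares with the block are not given for these changes, so the calls alone are no result about the receptors.

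Ccr2 and Cx3cr1 are also read as monocyte genes, so 4 monocyte markers (Ly6c2, Ly6c1, Plac8, Fn1) were set beside them. Their summed level ranged over 45.7 to 95.1 FPKM in the 3 h WT controls and 57.1 to 108 FPKM with IL-4, and over 32.6 to 60.6 and 34.7 to 66.9 FPKM at 6 h, so the groups overlapped at both times. At 24 h the ranges were 23.8 to 47.7 FPKM and 14.4 to 15.7 FPKM, without overlap (2 of the 4 markers fell and Fn1 rose), and their part in the 24 h values was not tested. Of 6 tested neutrophil markers, 4 also fell at 24 h, with sums of 443 to 614 FPKM in controls and 219.9 to 320.0 FPKM with IL-4 (Ly6g was not tested). The macrophage markers fell for 4 of 6 there. At 24 h 55.0% of all tested loci passed in either direction, so these marker counts alone are no result about the markers. In bulk samples, fewer cells of a type and less RNA per cell cannot be told apart.

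Ccrl2, the atypical chemerin receptor, fell modestly at every time, by less than 2-fold on the log2(FPKM + 1) scale. The WT controls held 6.83, 5.75, 4.66 and 4.84 FPKM at 1 h and the IL-4 samples 4.14, 3.46, 3.18 and 2.69 FPKM. The 3 h controls held 5.16, 5.09, 4.39 and 4.32 FPKM against 3.37, 2.79, 2.47 and 2.11 FPKM. At 6 h, the time of its largest difference, the groups held 4.56, 4.62, 4.28 and 3.84 FPKM and 2.30, 2.35, 2.31 and 1.50 FPKM. At 24 h they held 4.82, 3.79, 4.99 and 5.48 FPKM and 2.77, 3.06 and 3.24 FPKM. Each IL-4 sample was below each control at all 4 times.
The differences at 1, 3, 6 and 24 h were -0.58, -0.65, -0.78 and -0.51, with limma adjusted p of 0.048, 0.0079, 9.6e-04 and 0.034. The calls at 1 and 24 h were lost in 7 and 8 of 14 alternative settings, among them leaving out any 1 WT replicate (limma adjusted p = 0.150 to 0.264 and 0.072 to 0.153), and the 3 h call without WT replicate 2, 3 or 4 (limma adjusted p = 0.062 to 0.067). Tukey adjustment ended the calls at 1, 3 and 24 h (adjusted p = 0.282, 0.140 and 0.599).

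Ccr1, the receptor for CCL3 and CCL5, went the other way and late. From 1 to 6 h its WT groups overlapped, with all values between 4.42 and 8.45 FPKM. At 24 h the controls held 4.59, 5.17, 4.85 and 7.11 FPKM and the IL-4 samples 33.3, 26.8 and 25.8 FPKM, every one above every control. This was a 5.27-fold higher mean and a difference of 2.21 (SE 0.27, limma adjusted p = 1.1e-08). The response at 24 h exceeded that at 6 h by 2.12 (SE 0.37, limma adjusted p = 2.4e-05), 1 of 5 receptors to pass there, against 27.8% of all loci.

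In Stat6-/- BMDMs, 0 of the 5 receptors passed in limma at any single time, against 0% of all loci. In the fit without a block, 0 of the receptors and between 37 and 131 of the 11146 loci had an unadjusted p under 0.05 at the single times. That is below the 0.05 share that no effect would give. Passing 0 in that fit therefore does not show that a response was absent. With the block, still 0 receptors passed after adjustment at a single time, but the unadjusted p was 0.0014 for Cxcr4 at 1 h, 3.4e-04 for Cxcr4 at 3 h and 0.047 for Ccr1 at 6 h in limma.
Cxcr4 at 1 h held 74.7 and 36.9 FPKM in the controls and 59.9 and 23.2 FPKM with IL-4, and at 3 h 44.7 and 28.8 FPKM and 35.2 and 16.6 FPKM. Its mean difference over the 4 times was -0.34, with a limma adjusted p of 1.0, and of 0.0099 with the replicate block. For that mean 0 of 5 receptors passed, against 0.00897% of loci, and 1 of 5 with the block, against 0.413%.
Ccr1 at 24 h held 12.9 and 4.16 FPKM in the controls and 13.7 and 10.3 FPKM with IL-4, which overlapped. Its mean difference over the 4 times was 0.43 and did not pass with or without the block. That mean was 0.74 without Stat6-/- replicate 1 and 0.13 without replicate 2, fits that left 1 sample a group. Ccrl2 at 6 h held 4.02 and 4.60 FPKM and 4.07 and 5.59 FPKM. Cx3cr1 at 6 h held 1.81 and 13.2 FPKM and 1.57 and 9.42 FPKM, and Ccr2 at 6 h 33.7 and 128 FPKM and 36.0 and 145 FPKM. For Cx3cr1 and Ccr2 the gap between the 2 replicates was wider than that between control and IL-4.

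**Figure D3:**
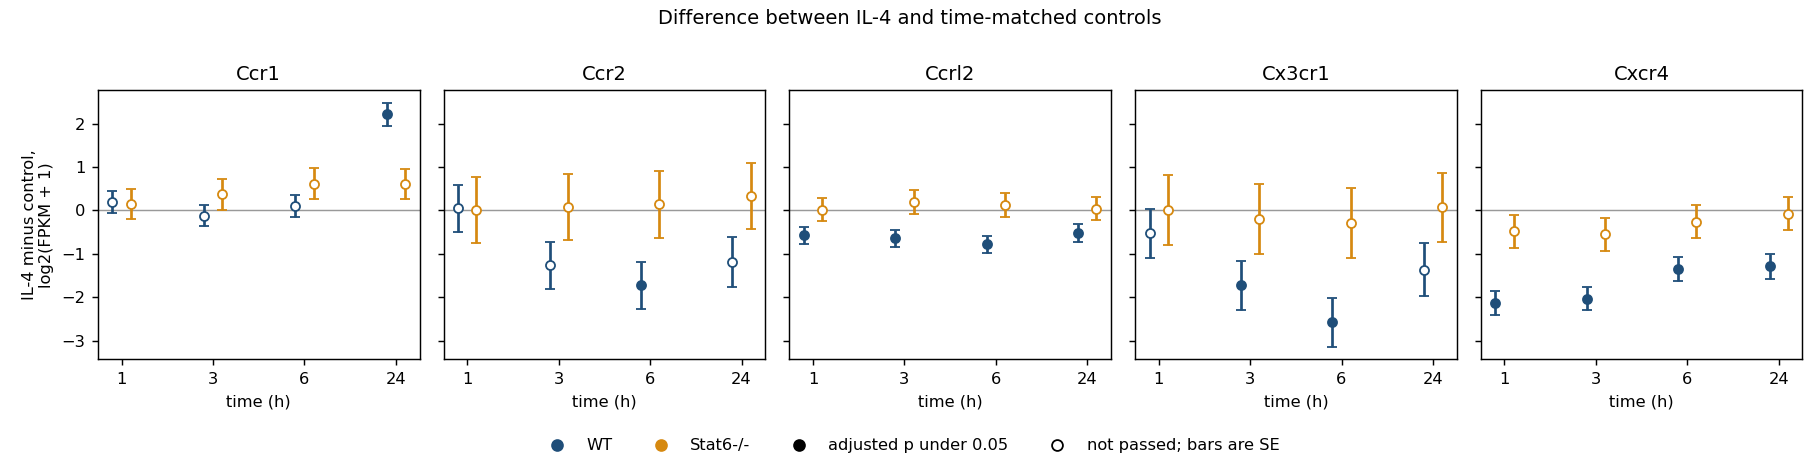
Difference between IL-4 and time-matched controls (log2(FPKM + 1), points with SE bars) for each receptor at 1, 3, 6 and 24 h, WT in blue and Stat6-/- in orange, with filled points where the limma adjusted p was under 0.05. All filled points are WT, and every Stat6-/- point lies between -0.55 and 0.62.

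The difference between genotypes in the response was tested directly. Without a block, 3 of 20 receptor-by-time tests passed. They were Cxcr4 at 1 h (-1.65, SE 0.47, limma adjusted p = 0.037, against 3.36% of loci), Cxcr4 at 3 h (-1.48, SE 0.47, limma adjusted p = 0.031, against 11.2%) and Ccr1 at 24 h (1.61, SE 0.45, limma adjusted p = 0.0063, against 27.0%). At 6 h 0 of 5 passed, against 16.5%. Both Cxcr4 calls were lost when any 1 WT replicate was left out (limma adjusted p = 0.106 to 0.165 at 1 h and 0.081 to 0.110 at 3 h), both with no filter on low loci (0.065 and 0.052), that at 1 h also with only the groups compared (0.141), and the Ccr1 value was 0.051 with only the groups compared in the fit.
With the replicate number as a block, 13 of 20 passed, 1, 4, 4 and 4 of 5 at 1, 3, 6 and 24 h, against 7.55%, 21.4%, 30.2% and 45.0% of loci. Cx3cr1 then differed by -2.30 at 6 h (limma adjusted p = 3.4e-05 with the block, 0.113 without) and Ccr2 by -1.86 (limma adjusted p = 3.8e-06 with the block, 0.192 without). Ccrl2 passed at 3 and 6 h with the block (limma adjusted p = 0.026 and 0.011). Cxcr4 at 6 and 24 h (3.3e-06 and 7.1e-07), Ccr2 at 3 and 24 h (6.4e-04 and 2.1e-04) and Cx3cr1 at 3 and 24 h (0.0056 and 0.010) also passed in limma with the block. Leaving out Stat6-/- replicate 1 or 2 left 1 Stat6-/- sample a group. In all samples without a block, the differences were -0.84 and -0.91 for Ccrl2 at 3 and 6 h, and -1.09 and -1.22 for Cxcr4 at 6 and 24 h. Without replicate 1, the differences were -0.97 and -1.02 for Ccrl2 at 3 and 6 h, and -0.94 for Cxcr4 at 6 h. They were -2.14 for Cx3cr1 at 6 h and -1.12 for Cxcr4 at 24 h. Without replicate 2, they were -0.80, -2.45 and -1.25 for Ccrl2, Cx3cr1 and Cxcr4 at 6 h, and -1.31 for Cxcr4 at 24 h. For Ccrl2 at 3 h the difference without replicate 2 was -0.71. Some of the results that passed with the block passed in other settings too. With a pseudocount of 0.1, Ccrl2 at 6 h and Cx3cr1 at 6 and 24 h passed (limma adjusted p = 0.039, 0.036 and 0.031), and with only the groups compared Ccrl2 at 6 h did (0.012).

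The 2 Stat6-/- replicates stood apart at these genes. Replicate 2 was above replicate 1 in 9 of 9 groups for Ccr2 (median ratio 3.15) and Cx3cr1 (median ratio 4.10, up to 23.9), and below it in 9 of 9 for Cxcr4 (median ratio 0.495). The summed monocyte markers had medians of 55.9 FPKM in replicate 1 and 152 FPKM in replicate 2. In the 24 h controls, where the Cx3cr1 ratio was at its highest, the 2 sums were close (39.8 to 43.0 FPKM). Their part in the ratios was not tested. Among WT samples, replicate 4 was the lowest in 9 of 9 groups for both Ccr2 and Cx3cr1, and its monocyte sum had the lowest median, 39.5 FPKM.

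**Figure D4:**
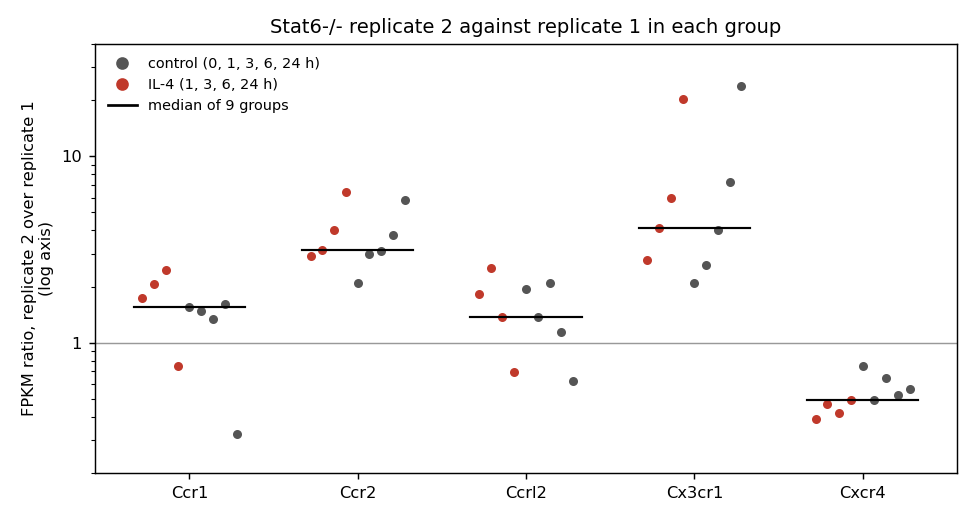
Ratio of FPKM in Stat6-/- replicate 2 over replicate 1 (log axis) in each of 9 groups for the 5 receptors, with controls in grey, IL-4 in red and the median as a bar. All 9 ratios lie above 1 for Ccr2 and Cx3cr1, and all 9 lie below 1 for Cxcr4.

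Between genotypes without IL-4, 0 of the 5 receptors passed at 0, 1, 3, 6 or 24 h, against 2.18%, 1.54%, 0.772%, 0.413% and 0.108% of loci. At 0 h Cxcr4 held 40.4, 42.8, 57.2 and 45.8 FPKM in WT and 37.6 and 28.2 FPKM in Stat6-/- samples, and Ccr2 81.2, 115, 85.7 and 67.9 FPKM and 68.7 and 144 FPKM. An exact two-sided permutation test on the control mean of each replicate cannot go below p = 0.133 with 4 against 2, which Ccr1 and Cxcr4 both reached. Leaving out a Stat6-/- replicate left 1 Stat6-/- sample a group, so only the size of the difference is given. Without replicate 1, Cxcr4 was lower at every time (-0.69 at 0 h and -1.19 at 6 h). Without replicate 2, Cxcr4 was at -0.29 at 0 and 6 h and at 0.07 at 1 h, so its 1 h sign turned too. Ccr2 and Cx3cr1 were higher at 24 h without replicate 1 (2.04 and 2.63). Without replicate 2, Ccr1 was higher at 24 h (1.13). The sign of these 24 h differences turned with the replicate left out, since Ccr2 and Cx3cr1 were at -0.43 and -0.71 without replicate 2, and Ccr1 at -0.30 without replicate 1.

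Time in culture without IL-4 also moved the receptors. In WT controls, Ccr2 fell from 81.2, 115, 85.7 and 67.9 FPKM at 0 h to 27.4, 32.2, 20.9 and 12.9 FPKM at 24 h (-1.91, limma adjusted p = 0.012), and Cx3cr1 from 12.5, 12.6, 10.3 and 7.82 FPKM to 2.15, 3.20, 1.36 and 0.768 FPKM (-2.09, limma adjusted p = 0.0092), 2 of 5 receptors against 17.2% of loci. Tukey adjustment and leaving out WT replicate 1, 3 or 4 each ended both calls, and leaving out replicate 2 ended that of Ccr2 (limma adjusted p = 0.059 to 0.099 for Ccr2 and 0.073 to 0.093 for Cx3cr1). The monocyte sum ranged over 56.8 to 103 FPKM in the 0 h and 23.8 to 47.7 FPKM in the 24 h WT controls, and its part was not tested.
Cxcr4 was 0.63 higher at 24 h, with a limma adjusted p of 0.105, and of 3.9e-06 with the replicate block, where 3 of 5 passed against 37.1% of loci. This difference also passed with only the groups compared in the fit (limma adjusted p = 0.0085). With the block, Cxcr4 was also higher than at 0 h in WT controls at 1 and 6 h (limma adjusted p = 1.2e-04 and 0.0063) and in Stat6-/- controls at 1 and 24 h (0.0078 and 0.0053), and Ccr2 was lower in Stat6-/- controls at 24 h (-1.32, 1.5e-04). None of these passed without the block in all samples. The shares of all loci that passed with the block are not given for these contrasts, so the calls alone are no result about the receptors. In Stat6-/- replicates 1 and 2, Cx3cr1 held 4.82 and 10.1 FPKM in the 0 h controls. The 24 h controls held 0.663 and 15.8 FPKM, so replicate 1 fell and replicate 2 rose. That difference of -0.60 did not pass with or without the block (limma adjusted p = 0.231 and 0.755). The time-matched control, not the 0 h sample, was the reference for each IL-4 value. All contrasts with 0 h share those samples.

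Ordered by mean level over the 18 groups, Ccr1 was highest in WT at 24 h with IL-4 (28.6 ± 4.07 FPKM, SD, n = 3), the one place in its order where neighbours did not overlap. Cx3cr1 was lowest in WT at 24 h with IL-4 (0.0590 ± 0.0406 FPKM, SD, n = 3), below WT at 6 h with IL-4 (0.348 ± 0.103 FPKM, SD, n = 4) and WT at 3 h with IL-4 (1.32 ± 0.422 FPKM, SD, n = 4), 3 groups that did not overlap. Cxcr4 was lowest in WT at 3 h with IL-4 (13.9 ± 2.52 FPKM, SD, n = 4), Ccr2 in WT at 24 h with IL-4 (10.2 ± 6.42 FPKM, SD, n = 3) and Ccrl2 in WT at 6 h with IL-4 (2.12 ± 0.409 FPKM, SD, n = 4). For these 3 genes all 17 neighbouring pairs overlapped.

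Of 18 other chemokine receptors, 5 reached 1 FPKM (Ccr3, Ccr7, Ccr1l1, Cxcr2 and Cxcr3). In WT with IL-4, 0 passed at 1 h, 1 rose at 3 h, 1 rose and 2 fell at 6 h, and 2 fell at 24 h, against 9.39%, 28.9%, 41.2% and 55.0% of all loci. Cxcr3, a receptor best known on T cells, fell at 24 h (-1.81, limma adjusted p = 1.8e-08), and Ccr3, the eotaxin receptor, at 6 h (-0.72, limma adjusted p = 3.7e-04).

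Of 14 ligand genes of the 5 receptors, 10 were tested, and 5 rose and 0 fell at 24 h in WT, which is near the 55.0% of all loci that passed in either direction. Their median difference was 0.55, against -0.07 over all loci. Ccl7, a CCR2 ligand, rose at 3 h (5.42, limma adjusted p = 7.6e-04) and Ccl2 at 6 h (3.35, limma adjusted p = 0.0080). Cxcl12 and Cx3cl1, the ligands of CXCR4 and CX3CR1, and Rarres2 stayed under 1 FPKM in every sample.
Among 21 genes of receptor signalling and desensitization, 2 rose and 11 fell at 6 h, when 41.2% of all loci passed, with a median of -0.32. The changes of at least 2-fold included Pik3r5, a regulatory subunit of PI3K gamma (-1.14, limma adjusted p = 1.9e-12), Rgs2, a regulator of G protein signalling (-1.11, limma adjusted p = 9.3e-09), and Grk5, a receptor kinase (-1.11, limma adjusted p = 2.3e-08).
Of 7 tested receptors for other chemoattractants, 2 rose and 4 fell at 6 h, against 41.2% of all loci. C5ar1, the C5a receptor, fell (-1.17, limma adjusted p = 2.6e-07), as did Ptafr, the receptor for platelet-activating factor (-1.25, limma adjusted p = 1.9e-14), whereas Ltb4r1, the leukotriene B4 receptor, rose (1.65, limma adjusted p = 1.6e-08). Arg1, a standard marker of IL-4 action, was higher at 6 h by 5.98 (limma adjusted p = 7.9e-28).

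Across the 18 group means, which share libraries and controls, Ccr2 and Cx3cr1 had a Pearson r of 0.921, and Ccr1 had -0.265 with Ccr2 and -0.374 with Cx3cr1, given as descriptions. The 3 loci most like Ccr1 were Igf2bp2 (r = 0.939), Ptprn (0.939) and Met (0.929). For Ccr2 they were St3gal6 (r = 0.983), Slc28a2 (0.974) and Dclre1a (0.973), and those for Cx3cr1 included Msh6 (r = 0.969) and Plcg2 (0.934). For Ccrl2 they were Peli1 (r = 0.959), S1pr2 (0.95) and Apobec1 (0.95), and for Cxcr4 Gm16515 (r = 0.918), Krr1 (0.913) and Fam134a (0.903).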

How the data were processed

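Poly(A) RNA of 53 BMDM samples was sequenced as unstranded TruSeq libraries. Per the labels and methods, the authors aligned reads to mm10 with TopHat2 2.0.7 and deposited 1 table of FPKM values per sample, made with Cufflinks 2.0.2. The 11146 of 23847 loci that reached 1 FPKM somewhere were tested with limma 3.58.1 (R 4.3.3) on log2(FPKM + 1), all samples in 1 fit with a mean per group and 35 residual degrees of freedom, whereas the study's Tukey adjustment was an alternative. The fit was tested on simulated data with independent noise in each sample and no difference between replicates. Replicates do differ here, so that test cannot judge the fit under such differences. The members and gene lists were chosen with earlier results of these data known. Named genes are the members, the listed receptors, ligands, signalling genes and markers, neighbours within 250 kb, and the loci with the highest correlation. Some listed items are not reported here, and the summed markers leave them out.

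Replicate numbers were read as animals because the study describes WT fold changes per individual animal, although no label ties a number to an animal. Where same-group samples were not separate animals, the p-values measure only the spread between samples. Deviations from the group means correlated at a mean r of 0.223 for WT samples with the same number (111 of 136 pairs over 0.1) and -0.074 with different numbers, and at 0.714 and -0.714 for Stat6-/- samples, where the deviations of 2 samples mirror each other. A fit with the number as a block was an alternative, except between genotypes in controls, where numbers are nested in genotype.

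FPKM gives no counts. Relative depth was read from the steps of 12701 loci below 1 FPKM and spanned 0.707 to 1.55, with 1365 of 1378 sample pairs fitting within 2%. That estimator was revised after a first version fitted 1138 pairs (6633 loci, 0.715 to 1.49), and no test uses depth. Other alternatives were the pseudocount, filters, scalings, the samples in the fit and leaving out each replicate.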

Additional observations from a re-analysis of the deposited data

Results flagged for a closer look

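The WT and Stat6-/- responses to IL-4 differed, by the test of the difference itself, for Cxcr4 at 1 h (-1.65, limma adjusted p = 0.037) and at 3 h (-1.48, limma adjusted p = 0.031) and for Ccr1 at 24 h (1.61, limma adjusted p = 0.0063). Both Cxcr4 calls were lost when any 1 WT replicate was left out, and the Ccr1 call with only the groups compared. For Cxcr4 the IL-4 samples were lower than the same-numbered control in 4 of 4 WT pairs and 2 of 2 Stat6-/- pairs at both times, and for Ccr1 higher in 3 of 3 and 2 of 2 pairs.

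One sample stood far from the others of its group: Ccrl2 in WT replicate 4 at 6 h with IL-4 was at 1.50 FPKM, and its gap to the next value was 0.939 of the group's range. Of 40 groups looked at, 1 stood out in this way, and chance gives about 1 in 20.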

How the results depend on the processing

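No result that passed in the fit of all samples changed direction in the alternatives, whereas some that did not pass, such as Ccr1, Ccr2 and Cx3cr1 between genotypes in 24 h controls, turned sign with the Stat6-/- replicate left out. Of 20 WT receptor-by-time results, 12 passed, 7 did under Tukey adjustment, and leaving out 1 replicate number gave 7 to 15. For the response in Stat6-/- samples, 0 of 25 passed, 1 did with the replicate block, and leaving out 1 number gave 0 to 1. For WT minus Stat6-/- responses, 3 of 20 passed, against 6 with a pseudocount of 0.1, 1 with no filter on low loci and 13 with the replicate block, and 1 to 7 when 1 number was left out. For genotype in controls, 0 of 25 passed, and 0 to 7 when 1 number was left out, the 7 without Stat6-/- replicate 1. For time in culture, 2 of 40 passed, against 8 with the replicate block and 0 under Tukey adjustment, and 0 to 6 when 1 number was left out. For the change of the WT response between times, 1 of 15 passed, against 4 with only the groups compared and 6 with the replicate block, and 1 to 5 when 1 number was left out. Leaving out a Stat6-/- number leaves groups of 1, whose lone sample is then assumed to vary like the other groups. The 24 h Ccr1 difference between genotypes had an adjusted p of 0.0514 with only the groups compared. The block gained 25 of 120 receptor results and lost 0, each given beside its result above, and changed no other call. The cause of each change was not tested. Depth limits low values such as Cx3cr1 at 24 h.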
